A study of Mus musculus with 6 samples.

Results

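The genes described here encode the E proteins TCF3, TCF4, and TCF12 and their inhibitors ID1, ID2, and ID3. They were chosen by symbol, and all 6 were found among the 26264 genes of the table. Bulk RNA-seq was performed on hematopoietic stem cells (HSCs), sorted from bone marrow as Lin-Sca1+cKit+ (LSK) CD150+ CD48- cells, of untreated 8-week-old female mice. There were 3 WT (C57Bl/6) mice and 3 *Irf1-/-* (B6.129S2-Irf1 tm1Mak/J) mice, with 1 library per mouse, numbered as replicates 2, 3, and 4 in each genotype. The allele is a whole-body deletion, so that the HSCs also came from an *Irf1-/-* environment.

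E proteins are basic helix-loop-helix (bHLH) transcription factors that bind E-box DNA as dimers, either with each other or with tissue-restricted bHLH partners such as TAL1 and LYL1. ID proteins have the dimerization domain but no basic region, and so hold E proteins in dimers that do not bind DNA. The balance of both families is known for its role in the entry of blood progenitors into the lymphoid lineages.

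Libraries held 43138521 to 59658080 reads on genes. Values are normalized counts, that is, reads per gene divided by 1 size factor per library. *Irf1*, the targeted gene, had 10122, 11120, and 12057.5 normalized counts in WT replicates 2, 3, and 4 and 9267, 9524, and 9287 in the corresponding *Irf1-/-* libraries. All *Irf1-/-* values were below all WT values, but the *Irf1-/-* mean was still 84.3% of the WT mean. A total over the whole gene does not separate the deleted part from the rest, so that it is no check of the genotype, which rests on the labels.

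The HSC markers were abundant in every library, with summed normalized counts between 218882 and 242037 in WT and between 235010 and 259079 in *Irf1-/-* HSCs over 12 genes, of which *Kit* was the most abundant. One of them, *Fgd5*, was called higher in *Irf1-/-* HSCs (log2 fold change 0.83), though not without the trend of limma (adjusted *P* = 0.0511). At an unadjusted *P* under 0.05 in limma, 6 of the 12 were higher and 1 lower. The lower gene was *Ly6a*, which encodes the sort marker Sca1, with 6908, 7439, and 7692 normalized counts in WT against 4974, 6047, and 5376 in *Irf1-/-* HSCs. Its log2 fold change of −0.43 (adjusted *P* = 0.0245, limma) was short of the threshold, and the adjusted *P* was over 0.05 without *Irf1-/-* replicate 2 (0.115) or 4 (0.112), without WT replicate 3 (0.0786), and without the trend (0.262). *Procr* was also short of it at 0.52 (adjusted *P* = 0.0112, limma), and it was called without WT replicate 2 (0.58, adjusted *P* = 0.0149), within a range up to 0.227. *Fgd5*, *Ly6a*, and *Procr* were picked with their values known. *Gzma* of natural killer cells and *Spib* of plasmacytoid dendritic cells had 0 reads in all 6 libraries, as did the globin genes *Hba-a1*, *Hba-a2*, *Hbb-bs*, and *Hbb-bt*. WT replicate 4 stood apart in some genes of neutrophils and of lymphoid and plasmacytoid dendritic cells, but not in all genes of their lists. *S100a8* had 1033 normalized counts and *S100a9* had 1246 in this library, against at most 46.9 and 36.2 in the other WT libraries and 110.0 and 130.8 in *Irf1-/-* libraries. In the same library *Dntt* had 135.6 normalized counts, *Rag1* 148.5, *Ly6d* 59.2, *Siglech* 69.9, and *Ccr9* 65.6. In the other 5 libraries these were at most 48.8, 97.0, 5.63, 22.8, and 36.3, in that order. All of these genes were chosen for mention once their values were known, and *Dntt*, *Rag1*, *Ly6d*, and *Ccr9* belong to the list of E protein targets below. The sum of the B lineage list, mostly from *Cd79b*, was lowest in WT replicate 4 (2796). The sums of the T cell list (1372, mostly from *Lck*) and of the plasmacytoid dendritic cell list (1009, mostly from *Irf8*) were highest in it. Over the whole myeloid list of 11 genes the sum in WT replicate 4 was 36898, within the range of the other libraries (30719 to 41273), and *Lyz2* was its most abundant gene. Of 10 tested myeloid genes, limma called 0 in either direction (1 higher and 0 lower at an unadjusted *P* under 0.05), as did edgeR and DESeq2 (no adjusted *P* for 4 of 10 in DESeq2), and limma called 1 higher without WT replicate 2 or 4. Where leaving out this library moved a number of called genes, or turned a value or moved it by over 1.5 times, the result is also given without it.

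For the test between genotypes, limma was fitted to log2(normalized count + 1) of the 17404 genes whose mean was 10 or more, and all 6 members passed this filter. A positive log2 fold change means more in *Irf1-/-* HSCs, and the added 1 understates the change of rare transcripts. Calls needed both an adjusted *P* below 0.05 and a log2 fold change beyond 0.58 in size. None of the 6 members was called (0 of 6), against 1.91% of all tested genes in either direction, 0.96% higher and 0.954% lower. None of the 6 had an unadjusted *P* under 0.05 in limma, as 8.38% of all tested genes did among higher and 8.07% among lower ones. On the recovered reads edgeR called 0 of 6 and DESeq2 0 of 5, since DESeq2 gave *Id3* no adjusted *P*. limma without WT replicate 4 called 0 of 6. Of all genes with an adjusted *P*, edgeR called 1.86%, DESeq2 3.85%, and limma without WT replicate 4 3.31%.

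*Tcf3* encodes E12 and E47, the E proteins named for binding immunoglobulin enhancers. Its normalized counts were 13839, 14594, and 13319 in WT replicates 2, 3, and 4 and 13446, 14028, and 13330.3 in the corresponding *Irf1-/-* libraries. The genotypes overlapped, with the highest and the lowest value both in WT HSCs. The means were 13917 ± 641 (SD, *n* = 3 mice) in WT and 13602 ± 374 in *Irf1-/-* HSCs. The log2 fold change was −0.03 (SE 0.082, adjusted *P* = 0.909, limma), with a 95% interval from −0.21 to 0.14, and it turned to 0.0064 with quantile normalization and 0.0023 without WT replicate 3. It moved to −0.06 with median centring or without WT replicate 4, to −0.05 without *Irf1-/-* replicate 3, and to −0.02 without *Irf1-/-* replicate 4.

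*Tcf4* encodes E2-2, the E protein that plasmacytoid dendritic cells depend on. Its normalized counts were 5247, 5261, and 5449 in WT HSCs and 4982, 6135, and 5539 in *Irf1-/-* HSCs. The 3 WT libraries lay between the lowest and the highest *Irf1-/-* library. The coefficient of variation was 2.12% in WT and 10.4% in *Irf1-/-* HSCs. The log2 fold change was 0.06 (SE 0.094, adjusted *P* = 0.844, limma), with a 95% interval from −0.14 to 0.26. It was −0.02 without *Irf1-/-* replicate 3, the highest library, 0.13 without *Irf1-/-* replicate 2, the lowest, 0.10 with quantile normalization, and 0.03 with median centring.

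*Tcf12* encodes HEB, which pairs with the products of *Tcf3* in early T cells. It had 3689, 3580.3, and 3198 normalized counts in WT HSCs against 3755, 3902, and 3284 in *Irf1-/-* HSCs. Replicate 4 was the lowest library of both genotypes, and the genotypes overlapped. The log2 fold change was 0.06 (SE 0.10, adjusted *P* = 0.839, limma), with a 95% interval from −0.15 to 0.28. Leaving out WT replicate 4 gave 0.00097, *Irf1-/-* replicate 3 gave 0.01, and *Irf1-/-* replicate 2 gave 0.04, while *Irf1-/-* replicate 4 gave 0.14 and WT replicate 2 gave 0.10. With quantile normalization it was 0.10, and with median centring 0.03. The intervals of all 3 E protein transcripts thus lay inside the fold change threshold of 0.58 on both sides.

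*Id1*, a BMP-responsive inhibitor, had 206.6, 160.0, and 154.9 normalized counts in WT HSCs against 166.3, 230.7, and 140.1 in *Irf1-/-* HSCs. *Irf1-/-* libraries were both the highest and the lowest of the 6. The log2 fold change was 0.02 (SE 0.27, adjusted *P* = 0.982, limma), and its 95% interval from −0.55 to 0.59 was wider than that of any E protein transcript. Its sign turned in 5 of 16 alternatives, to −0.17 without *Irf1-/-* replicate 3, −0.03 without WT replicate 3, −0.05 without WT replicate 4, −0.07 with quantile normalization, and −0.0076 with median centring. It was 0.06 without *Irf1-/-* replicate 2, 0.18 without *Irf1-/-* replicate 4, 0.15 without WT replicate 2, and 0.04 in edgeR and in DESeq2.

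*Id2*, the inhibitor that innate lymphoid and natural killer cells need, had 378.5, 420.4, and 392.7 normalized counts in WT HSCs against 429.6, 389.7, and 394.5 in *Irf1-/-* HSCs. The values of both genotypes lay within a narrow and shared range, with a coefficient of variation of 5.36% in WT and 5.39% in *Irf1-/-* HSCs. The log2 fold change was 0.03 (SE 0.17, adjusted *P* = 0.967, limma), with a 95% interval from −0.33 to 0.38. This sign, too, turned in 4 of 16 alternatives, with quantile normalization (−0.03), with median centring (−0.0044), and without *Irf1-/-* replicate 2 (−0.02) or WT replicate 2 (−0.0073). Leaving out *Irf1-/-* replicate 3 gave 0.05, *Irf1-/-* replicate 4 gave 0.04, and WT replicate 3 gave 0.07.

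*Id3*, an inhibitor induced by antigen receptor signals in lymphocytes, was the member with the fewest reads. It had 37, 38, and 28 reads in WT replicates 2, 3, and 4 and 21, 25, and 20 in the corresponding *Irf1-/-* libraries. In normalized counts these were 30.4, 42.8, and 30.1 in WT and 22.4, 21.6, and 20.8 in *Irf1-/-* HSCs. All 3 *Irf1-/-* libraries lay below all 3 WT libraries, which was the case for 1 of 6 members and for 9.27% of all tested genes. The mean was 34.5 ± 7.24 (SD, *n* = 3 mice) in WT and 21.6 ± 0.81 in *Irf1-/-* HSCs. An exact permutation of the libraries, two-sided, gave *P* = 0.1, and 3 mice against 3 allow no smaller value. In the fit over all genes the log2 fold change was −0.63 (SE 0.50, adjusted *P* = 0.611, limma), with a 95% interval from −1.70 to 0.44, and the gene was not called. Counting error alone was wide at this depth. The exact Poisson 95% interval of the highest WT library, replicate 3, ran from 30.3 to 58.8 normalized counts, and that of *Irf1-/-* replicate 2 from 13.9 to 34.2. PCR copies were not marked by molecular identifiers, so these intervals cover counting error only. Without WT replicate 3 the log2 fold change was −0.47, and with a pseudocount of 5 it was −0.56.

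*Id4*, the family's remaining gene and not a member, was as rare, with 23.0, 25.9, and 47.3 normalized counts in WT HSCs against 28.8, 16.4, and 32.2 in *Irf1-/-* HSCs. The genotypes overlapped, and the log2 fold change was −0.29 (adjusted *P* = 0.868, limma), or 0.02 without WT replicate 4, the highest library. It was −0.0033 without *Irf1-/-* replicate 3, −0.47 without *Irf1-/-* replicate 4, and −0.48 without WT replicate 2.

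To order the genes by level, normalized counts were divided by the length of the longest transcript of each symbol in the GENCODE vM1 annotation. *Tcf3* was by far the highest, at 4718 ± 217 normalized counts per kb (SD, *n* = 3 mice) in WT HSCs. It stood above 94.8% of the 14660 tested genes that had a length. *Tcf12* (741 ± 54.8 per kb) and *Tcf4* (719 ± 15.2 per kb) followed in WT HSCs and did not differ beyond their spread. This tie depends on the transcript, since with the shortest coding transcripts *Tcf4* made up 7.89% ± 0.47 of the summed E protein level in WT HSCs and *Tcf12* 5.12% ± 0.28 (SD, *n* = 3 mice). With the longest transcripts *Id2* was next at 313 ± 16.7 per kb, close to the median of 328 per kb over genes with a length, ahead of *Id1* (150 ± 24.5 per kb) and *Id3* (27.0 ± 5.67 per kb). *Id3* and *Id4* (19.3 ± 8.00 per kb) were not separated by their spread. The order of *Tcf3*, the pair *Tcf12* and *Tcf4*, *Id2*, *Id1*, and *Id3* was the same in *Irf1-/-* HSCs.

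*Tcf3* made up 76.4% ± 0.64 (SD, *n* = 3 mice) of the summed E protein level per kb in WT HSCs and 75.2% ± 0.89 in *Irf1-/-* HSCs. *Id2* made up 63.9% ± 3.74 of the summed ID level per kb in WT HSCs and 65.3% ± 5.75 in *Irf1-/-* HSCs. The share of *Id3* in the summed ID level was 4.77%, 6.67%, and 5.05% in WT replicates 2, 3, and 4 and 3.51%, 3.23%, and 3.63% in the corresponding *Irf1-/-* libraries, again without overlap. The summed ID level per kb was 8.09%, 7.83%, and 7.86% of the summed E protein level in the WT libraries. In the *Irf1-/-* libraries it was 8.28%, 8.15%, and 7.51%. The *Irf1-/-* libraries thus lay on both sides of the WT libraries. These percentages depend on the transcript lengths used, and with the shortest coding transcript of each gene the means were 1.41% in WT and 1.44% in *Irf1-/-* HSCs. For *Tcf3* this shortest transcript has only 430 bases, against 2950 for the longest, and whether it is complete was not examined. They compare transcripts and not proteins, and the isoforms of *Tcf3*, including E12 and E47, are summed in the gene's count.

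The genes most like each member were found as those with the smallest root mean square distance between profiles over the 6 libraries, centred on the log2 scale, among genes with a mean of 100 or more. They were *Ifnar2* (0.017) and *Ptp4a2* (0.018) for *Tcf3*, *Zmat5* (0.017) and *Mettl26* (0.018) for *Tcf4*, and *Atp11b* (0.020) and *Iqgap1* (0.026) for *Tcf12*. For *Id1* they were *Nrk* (0.067) and *Epop* (0.087), and for *Id2* they were *Chka* (0.015) and *Ddhd2* (0.022). A profile that is nearly level over the libraries is close to many others. *Slc22a3* (0.051) and the megakaryocyte gene *Gp1ba* (0.078) were nearest to *Id3*. Since all *Irf1-/-* values of *Id3* lay below WT, the genes nearest to it are lower in *Irf1-/-* HSCs by the way they were chosen. Both of these were called, *Slc22a3* with a log2 fold change of −0.65 and *Gp1ba* with −0.69. Both lost their calls without the trend (adjusted *P* = 0.247 and 0.259, limma). *Slc22a3* lost its call without WT replicate 3 (−0.49), and so did *Gp1ba* (−0.52, adjusted *P* = 0.0770, limma). *Gp1ba* also lost it without *Irf1-/-* replicate 2 (adjusted *P* = 0.0643, limma) or 3 (0.0585).

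Genes that act with, on, or downstream of the E and ID proteins were taken from 9 lists of 123 genes in all, of which 95 were tested. Of these, 7 were called higher in *Irf1-/-* HSCs and 0 lower, against 0.96% and 0.954% of all tested genes. edgeR on the recovered reads called 7 higher and 0 lower, and DESeq2 called 8 and 0, with no adjusted *P* from edgeR for 1 and from DESeq2 for 22 of the 95. At an unadjusted *P* under 0.05 in limma, 19 of 95 were higher and 6 lower, against 8.38% and 8.07% of all tested genes. The lists were written with earlier results of these data known, so that these counts describe the lists and do not test them. The median log2 fold change was 0.06 over these 95 genes and −0.0028 over all tested genes. The number called higher was 3 without *Irf1-/-* replicate 2, *Irf1-/-* replicate 4, or WT replicate 3, and 4 without WT replicate 2. Leaving out *Irf1-/-* replicate 3 gave 5 and WT replicate 4 gave 7, and in each of these fits 1 gene was called lower. All 7 calls needed the trend of limma, since without it none of the 7 was called, at adjusted *P* values from 0.0511 (*Egr1*) to 0.358 (*Flt3*).

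Of the tissue-restricted (class II) bHLH genes and related repressors, 8 of 21 were tested and none was called in limma, edgeR, or DESeq2 (no adjusted *P* for 2 of 8 in DESeq2), with 1 higher and 1 lower at an unadjusted *P* under 0.05 in limma. Their median log2 fold change of 0.12 turned to −0.14 at a mean of 50 or more, −0.03 in DESeq2, and −0.02 without WT replicate 4. Leaving out *Irf1-/-* replicate 3 gave 0.0012, *Irf1-/-* replicate 4 gave 0.23, and WT replicate 3 gave 0.24. The level of *Tal1*, the best known E protein partner in HSCs, was 2369 ± 268 in WT and 2315 ± 37.1 in *Irf1-/-* HSCs (SD, *n* = 3 mice). The smallest *P* was that of *Bhlhe40*, a bHLH repressor, with 1142, 1365, and 1400 normalized counts in WT against 1476, 2034, and 2025 in *Irf1-/-* HSCs. These did not overlap between the genotypes, and the log2 fold change was 0.49 (adjusted *P* = 0.0764, limma). Without *Irf1-/-* replicate 2 it was called (0.65, adjusted *P* = 0.0316, limma), and over all alternatives the adjusted *P* reached 0.357.

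The LIM domain, GATA, and LDB1 proteins join TAL1 and E proteins in one DNA-bound complex in HSCs. RUNX1 with CBFB, FLI1, ERG, and the LDB1-binding SSBP proteins were listed with them. Of the 15 genes in this list, all tested, 1 was called higher and 0 lower, with a median log2 fold change of 0.02 that turned to −0.0096 with median centring and −0.04 without WT replicate 4. Leaving out *Irf1-/-* replicate 2 gave 0.04, WT replicate 3 gave 0.03, and WT replicate 2 gave 0.05, as did quantile normalization. *Lmo2* (54011 ± 1807 normalized counts in WT against 52003 ± 4681 in *Irf1-/-* HSCs, SD, *n* = 3 mice) and *Gata2* (34342 ± 4353 and 37411 ± 1742) had the highest counts. *Ldb2*, which encodes a bridging protein for LIM domains, had 102.0, 130.7, and 150.6 normalized counts in WT HSCs against 310.2, 219.5, and 329.1 in *Irf1-/-* HSCs. Every *Irf1-/-* library exceeded every WT library, and *Ldb2* rose by 1.15 on the log2 scale (SE 0.26, adjusted *P* = 0.0267, limma). *Ldb2* was not called without *Irf1-/-* replicate 2 (adjusted *P* = 0.119, limma) or 4 (0.147) and without WT replicate 2 (0.0873) or 3 (0.0714). *Gata1*, singled out after its values were seen, was not called (log2 fold change −0.66, adjusted *P* = 0.0575, limma) but was called lower without WT replicate 4 (−0.84, adjusted *P* = 0.0106, limma), with a pseudocount of 5 (0.0485), at a mean of 50 or more (0.0491), and with median centring (0.0422), and over all alternatives the adjusted *P* reached 0.400. Its log2 fold change fell in size to −0.42 without WT replicate 3 (adjusted *P* = 0.176, limma), the library with the most *Gata1*, and −0.53 without *Irf1-/-* replicate 3 (0.163).

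Markers of the megakaryocyte and erythroid lineages were lower in *Irf1-/-* HSCs beside these values. Of 7 tested megakaryocyte genes, 2 were called lower and 0 higher, *Pf4* (log2 fold change −1.11) and *Gp1ba*, and 3 lower without WT replicate 4. Their list summed to 64767, 80071, and 62339 normalized counts in WT replicates 2, 3, and 4 and to 57813, 40752, and 53969 in *Irf1-/-* HSCs, and *Itga2b* was the most abundant gene. Of 7 tested erythroid genes, *Klf1* (−0.72) and *Car1* (−3.51) were called lower and none higher, and the summed counts, mostly from *Car2*, were 96898, 103480.0, and 96576 in WT and 72497, 86568, and 78775 in *Irf1-/-* HSCs. edgeR and DESeq2 did not call *Car1* (adjusted *P* = 0.0875 and 0.198, in that order). *Klf1* lost its call without *Irf1-/-* replicate 2 (adjusted *P* = 0.0583, limma) or 3 (−0.50, adjusted *P* = 0.0700) and without WT replicate 2 (0.117) or 3 (0.109), and *Car1* without *Irf1-/-* replicate 3 (0.0603) or 4 (0.0681). In bulk RNA, fewer cells of a type and less RNA per cell cannot be told apart, and the part of these markers in the values of the E protein complex genes was not tested. *Klf1*, *Car1*, *Pf4*, and *Gp1ba* were named here after their values were seen, and without the trend none of them was called by limma (adjusted *P* from 0.238 to 0.344).

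Of the coregulators that bind E proteins, 12 of 13 genes were tested and none was called in limma, edgeR, or DESeq2. At an unadjusted *P* under 0.05 in limma, 3 were higher and 0 lower, and the median log2 fold change was 0.10. *Kat2a*, an acetyltransferase (9003 ± 769 normalized counts in WT against 8845 ± 213 in *Irf1-/-* HSCs, SD, *n* = 3 mice), and *Cbfa2t3*, an ETO family corepressor (7201 ± 1066 and 8817 ± 500), were the most abundant. *Tle3*, a Groucho corepressor, had the smallest *P*. Its values of 927, 829, and 951 in WT and 1304, 1100.0, and 1217 in *Irf1-/-* HSCs did not overlap (log2 fold change 0.42, adjusted *P* = 0.0922, limma).

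All 8 genes for the turnover of E and ID proteins were tested, and none was called in limma, edgeR, or DESeq2, with 0 higher and 3 lower at an unadjusted *P* under 0.05 in limma. Their median log2 fold change was −0.17. *Usp1* encodes a deubiquitinase that stabilizes ID proteins. It had 7907, 9090.0, and 7268 normalized counts in WT HSCs against 6502, 6560, and 5992 in *Irf1-/-* HSCs. All *Irf1-/-* values were below all WT values, and the log2 fold change was −0.34 (SE 0.097, adjusted *P* = 0.0745, limma), short of the fold change threshold. *Fzr1*, an activator of the anaphase-promoting complex, had the highest count of the list (11008 ± 1214 in WT and 10314 ± 840 in *Irf1-/-* HSCs, SD, *n* = 3 mice).

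BMP signals reach the ID genes through SMAD1 and SMAD5. Of 25 genes in this list, 20 were tested, 2 were called higher, and 0 lower, and 1 was called higher without WT replicate 4. The median log2 fold change was 0.08, and it was 0.13 without WT replicate 4 or at a mean of 50 or more, 0.05 with median centring, and 0.05 with quantile normalization. The ligand gene *Bmp4* had 86.4, 76.6, and 118.3 normalized counts in WT HSCs against 223.9, 300.7, and 194.1 in *Irf1-/-* HSCs. The genotypes did not overlap, and *Bmp4* rose by 1.34 on the log2 scale (SE 0.28, adjusted *P* = 0.0200, limma). *Smad7*, the gene of an inhibitory SMAD, had 673, 554, and 598 normalized counts in WT HSCs against 952, 795, and 1058 in *Irf1-/-* HSCs. These did not overlap either, and *Smad7* rose by 0.61 (SE 0.15, adjusted *P* = 0.0405, limma). *Bmp4* was no longer called without *Irf1-/-* replicate 2 (adjusted *P* = 0.0708, limma) or 3 (0.0754) or WT replicate 2 (0.0529) or 3 (0.0772). *Smad7* was no longer called without *Irf1-/-* replicate 2 (adjusted *P* = 0.137, limma) or 4 (0.212) or WT replicate 2 (0.0571), 3 (0.153), or 4 (0.0508), and leaving out *Irf1-/-* replicate 4 or WT replicate 3 lowered it to 0.52 or 0.55 on the log2 scale. The coreceptor gene *Eng* (12140.1 ± 566 normalized counts in WT against 13253 ± 581 in *Irf1-/-* HSCs, SD, *n* = 3 mice) and *Smad4* (9434 ± 468 and 9570 ± 480) had the highest counts.

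EGR factors are early response regulators that induce *Id3* in lymphocytes. Of 4 EGR genes, 2 were tested, 1 was called higher, and 0 lower. *Egr1* had 2744, 3234, and 2778 normalized counts in WT HSCs against 6247, 5935, and 5471 in *Irf1-/-* HSCs. The lowest *Irf1-/-* library was well above the highest WT library. *Egr1* rose by 1.01 on the log2 scale (SE 0.097, adjusted *P* = 3.89e-05, limma), and it was called without each library in turn. *Egr2* had few reads, with 1.65, 31.6, and 43.0 normalized counts in WT HSCs against 30.9, 50.1, and 16.6 in *Irf1-/-* HSCs, and the genotypes overlapped.

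Genes that E proteins are known to activate in early lymphoid cells formed the longest list. Of 30 genes, 25 were tested, 3 were called higher, and 0 lower, with a median log2 fold change of 0.09, and at an unadjusted *P* under 0.05 in limma 8 were higher and 0 lower. *Flt3*, the gene of a cytokine receptor of lymphoid-primed progenitors, had 2656, 1730, and 2865 normalized counts in WT HSCs against 3442, 4476, and 3460.0 in *Irf1-/-* HSCs. *Gfi1*, the gene of a zinc finger repressor, had 847, 736, and 547 in WT and 1630.0, 1383, and 1058 in *Irf1-/-* HSCs. For both genes, every *Irf1-/-* library lay above every WT library. *Flt3* rose by 0.67 on the log2 scale (SE 0.16, adjusted *P* = 0.0407, limma) and *Gfi1* by 0.94 (SE 0.18, adjusted *P* = 0.0126). *Flt3* lost its call without *Irf1-/-* replicate 2 (adjusted *P* = 0.0922, limma), 3 (0.55, 0.127), or 4 (0.0747) or WT replicate 3 (0.45, 0.117), with the log2 fold change given first where it was below the threshold. *Gfi1* lost it without *Irf1-/-* replicate 2 (0.0779). *Bcl11a*, a regulator of lymphoid progenitors, had the highest count of the list and 4637 ± 166 normalized counts (SD, *n* = 3 mice) in WT against 4648 ± 214 in *Irf1-/-* HSCs. Without WT replicate 4, the library with high *Dntt*, *Rag1*, *Ly6d*, and *Ccr9*, 4 genes of the list were called higher and 0 lower. The median of this list was then 0.57, and with all libraries it was 0.46 at a mean of 50 or more, 0.20 in edgeR, 0.05 in DESeq2, and 0.06 with median centring, and leaving out any other library gave 0.06 to 0.23.

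Marker lists of mature lymphoid cells were looked at beside these genes. None of the 7 tested B lineage, 5 T cell, 5 natural killer cell, and 4 plasmacytoid dendritic cell markers was called in either direction in limma or edgeR. At an unadjusted *P* under 0.05 in limma, 2 natural killer cell markers were lower, and DESeq2 called 1 of these lists' genes, a natural killer cell marker, lower. DESeq2 gave no adjusted *P* for 5 B lineage, 3 T cell, 2 natural killer cell, and 3 plasmacytoid dendritic cell genes, and edgeR for 1 each of the last 2 lists. The summed B lineage counts, mostly from *Cd79b*, were 2883, 3207, and 2796 in WT and 3189, 2948, and 3140.3 in *Irf1-/-* HSCs, and the genotypes overlapped. The summed T cell counts, mostly from *Lck*, were 1108, 1278, and 1372 in WT and 1354, 1181, and 1357 in *Irf1-/-* HSCs. *Irf8* took most of the plasmacytoid dendritic cell sums of 569, 612, and 1009 in WT and 867, 768, and 904 in *Irf1-/-* HSCs. The natural killer cell sums, mostly from *Nkg7*, were 4324, 3925, and 4141 in WT and lower in *Irf1-/-* HSCs, at 3327, 3004, and 3858. Markers of endothelium and stroma, with *Emcn* the most abundant, summed to 3440, 3594, and 3537 in WT and to 5191, 4996, and 5063 in *Irf1-/-* HSCs, with 0 of 8 called in limma, edgeR, or DESeq2 (no adjusted *P* for 4 of 8 in DESeq2) and 3 higher and 0 lower at an unadjusted *P* under 0.05 in limma. With 1 library left out, 1 of the 8 was called higher, except without *Irf1-/-* replicate 3, where 0 were. In limma on all libraries, 1 was also called higher with quantile normalization, with the replicate number as a block, and without the fold change threshold. Most of the endothelium and stroma sums came from *Emcn*, *Pdgfrb*, and *Kdr*. Their means were 1398, 1205, and 711 in WT against 2084, 1708, and 1046 in *Irf1-/-* HSCs. *Kdr* overlapped between the genotypes, as did the rarer *Cdh5*, *Cxcl12*, *Col1a1*, *Pdgfra*, and *Lepr*. *Cdh5* had means of 18.2 and 20.8, and only *Lepr* was lower in *Irf1-/-* HSCs (42.4 and 36.4). Apart from *Emcn*, these genes were named after their values were seen. The part of the marker sums in the values above was not tested.

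Of the cell cycle inhibitors linked to E proteins, 4 of 6 genes were tested and none was called in limma or edgeR, with 2 higher and 1 lower at an unadjusted *P* under 0.05 in limma. DESeq2 called 1 higher, *Cdkn1a*, and limma without *Irf1-/-* replicate 3 called 1 lower, *Cdkn2c*. The median log2 fold change was 0.13, and leaving out WT replicate 3 gave 0.03 and WT replicate 2 gave 0.24. *Cdkn1a*, which encodes p21, had 245, 175, and 144 normalized counts in WT HSCs against 287, 351, and 312 in *Irf1-/-* HSCs. The genotypes did not overlap, and the log2 fold change was 0.78 (SE 0.24, adjusted *P* = 0.10, limma), and DESeq2 gave an adjusted *P* of 0.0267, within a range up to 0.290 over the alternatives. *Cdkn1c* (2893 ± 189 normalized counts in WT against 3359 ± 217 in *Irf1-/-* HSCs, SD, *n* = 3 mice) and *Cdkn2c* (1234 ± 133 and 915 ± 224) had the highest counts.

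**Figure D1:**
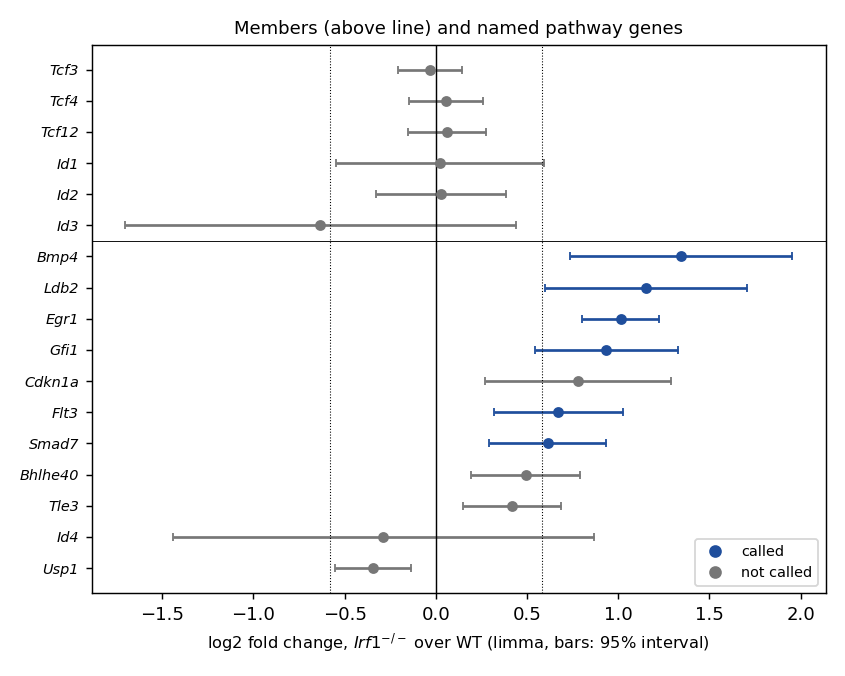
Log2 fold changes of *Irf1-/-* over WT (horizontal axis, limma) with 95% intervals for the members, above the line, and *Id4* and named genes of the lists, below it. Dotted lines mark 0.58 in each direction, and called genes are in blue. The intervals of all 6 members include 0, and the 6 called genes shown lie above 0.

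Promoter sequences from RefSeq (GRCm38.p6) were used for 4 of the 6 members, *Tcf3*, *Tcf12* with 3 starts, *Id2*, and *Id3*. For the members 1 chromosome was left out, which was kept in the shares over all promoters. That *Id1* and *Tcf4* have no window here is therefore not a result. The 250 bases before each start were searched on both strands for the IRF element core AANNGAAA, for the E-box CANNTG and its forms CAGCTG and CAGGTG, which it includes, for the SMAD element GGCGCC, and for the EGR element GCGNGGGCG. Over all 32851 promoters these were found in 21.3%, 66.2%, 13.0%, 17.2%, 9.59%, and 4.70%, in that order. The window of *Id3* held none of them. That of *Id2* held 1 SMAD element and 1 E-box of the form CAGCTG. The window of *Tcf3* held 1 E-box, as did 2 of the 3 windows of *Tcf12*, and the third held 3 matches to the IRF core. A match is a string of letters and not a measured binding site. The windows of *Id2* and *Tcf3*, the most abundant transcripts of the ID and E protein genes, are shown with that of *Bmp4*, which was added after its rise was seen and held 3 E-boxes. They lie at chr12:25096093-25096342, chr10:80433636-80433885, and chr14:46390670-46390919 on the minus strand and end at the base before the annotated start. Capitals mark the matches.
*Id2*: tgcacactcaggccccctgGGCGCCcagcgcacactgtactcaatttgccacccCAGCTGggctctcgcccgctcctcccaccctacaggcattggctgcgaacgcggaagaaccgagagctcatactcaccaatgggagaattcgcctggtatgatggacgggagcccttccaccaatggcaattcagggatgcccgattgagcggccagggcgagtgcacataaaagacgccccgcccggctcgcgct
*Tcf3*: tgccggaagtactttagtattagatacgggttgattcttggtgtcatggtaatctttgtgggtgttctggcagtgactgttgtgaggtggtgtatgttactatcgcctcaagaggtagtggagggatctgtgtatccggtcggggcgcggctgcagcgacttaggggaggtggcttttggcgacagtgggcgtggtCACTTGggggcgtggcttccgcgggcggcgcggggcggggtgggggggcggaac
*Bmp4*: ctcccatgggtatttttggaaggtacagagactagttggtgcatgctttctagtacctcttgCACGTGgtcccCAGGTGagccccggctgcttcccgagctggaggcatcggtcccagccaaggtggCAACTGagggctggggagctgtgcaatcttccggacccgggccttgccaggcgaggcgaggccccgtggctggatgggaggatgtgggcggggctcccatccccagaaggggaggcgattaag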

How the data were processed

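Libraries were prepared with SMART-Seq v4 and Nextera XT kits. According to the submitters' processing notes, reads were trimmed (Trim Galore) and aligned (HISAT2), and these notes name the build mm39. No versions are given. The table that the authors deposited holds a signal derived from counts, namely each gene's reads over 1 size factor of its library. Every value (100%, tolerance 0.01 reads) was a whole multiple of the worth of 1 read, which gave back whole reads. No strand setting is stated, so that reads from an antisense or overlapping gene may be included in a gene's value. Replicates carry the numbers 2 to 4 here and 1 to 3 in another label. The chi-square per gene between libraries of 1 genotype was between 16.0 and 30.0, far above sampling noise.

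Tests used limma 3.58.1 under R 4.3.3 with a mean-variance trend, a pseudocount of 1, and Benjamini-Hochberg adjustment over 17404 genes. Recovered reads went into edgeR 4.0.16 (quasi-likelihood) and DESeq2 1.42.0. All fits were tested on simulated data. Alternatives were other pseudocounts, filters, and scalings, no trend, the replicate number as a block, no fold change threshold, and each library left out. A shorter transcript for the levels per kb was added after the data were seen. Lengths were matched by symbol for 84.2% of the tested genes.

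The members and lists were chosen with earlier results of these data known. The text names the members, *Id4*, *Irf1*, called genes of the lists, the 2 most abundant tested genes of each list, the gene with the smallest *P* in lists without a call, and the 2 genes most like each member. Of the markers it names the most abundant gene and those at 0 reads. A gene covered by this rule is included in the counts of calls but is not reported here. Other genes are said to have been named after their values were seen.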

Additional observations from a re-analysis of the deposited data

How the results depend on the processing

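None of the members was called under any alternative that tested it (limma with another pseudocount, filter, or scaling, without the trend, with the replicate block, without the fold change threshold, or without 1 library, and edgeR and DESeq2). *Id3* was not tested in 2 of these, since DESeq2 gave it no adjusted *P* and its mean is below 50. The log2 fold change of *Tcf3* turned to 0.0064 with quantile normalization and lay between −0.064 (without WT replicate 4) and 0.0023 (without WT replicate 3) with 1 library left out. That of *Tcf4* lay between −0.018 (without *Irf1-/-* replicate 3) and 0.13. *Tcf12* kept its sign, between 0.00097 (without WT replicate 4) and 0.14 (without *Irf1-/-* replicate 4). *Id1* turned to −0.071 with quantile normalization and −0.0076 with median centring. With 1 library left out *Id1* lay between −0.17 (without *Irf1-/-* replicate 3) and 0.18, and leaving out WT replicate 3 or 4 gave −0.030 or −0.053. *Id2* turned to −0.033 with quantile normalization and −0.0044 with median centring, and with 1 library left out it lay between −0.017 (without *Irf1-/-* replicate 2) and 0.068, with −0.0073 without WT replicate 2. *Id3* kept its sign and lay between −0.72 and −0.47. *Id4* lay between −0.48 and 0.021, the latter without WT replicate 4. *Id3* and *Id4* have no value at a mean of at least 50, a filter they do not pass. The cause of these turns was not tested.

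Over all genes, 167 were called higher and 166 lower. Without the trend 7 were called higher and 33 lower, and without the fold change threshold, which only adds calls, 301 and 260. DESeq2 called 295 higher and 209 lower. With 1 library left out, 83 (without *Irf1-/-* replicate 4) to 304 (without WT replicate 4) were called higher and 105 (without WT replicate 3) to 265 (without WT replicate 4) lower. Of the lists, 7 genes were called higher and 0 lower. Without the trend 0 were called higher, and 3 to 7 were with 1 library left out. Lower calls were 1 with a pseudocount of 5, 1 at a mean of at least 50, 1 with median centring, and 0 to 1 with 1 library left out. The ID level as a percentage of the E protein level was 7.93 in WT and 7.98 in *Irf1-/-* HSCs, and 1.41 and 1.44 with the shortest coding transcript, because the transcripts of the E protein genes differ more in length.

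Deviations from the genotype mean correlated at −0.094, 0.25, and 0.15 between libraries numbered 2, 3, and 4, so the number was not taken as a pairing. Not every library correlated best with its own number (*Irf1-/-* replicate 2 with WT replicate 4, 0.25). With the number as a block, 219 genes were called higher and 196 lower, 0 of the members, and 7 higher and 0 lower of the lists.

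The values have limits. With 3 mice per genotype, intervals are wide for *Id1* and *Id3*, and a missed threshold does not show that values were the same. Transcripts were counted per gene, so that isoforms and proteins were not measured, and ID proteins act as proteins. The deleted part of *Irf1* was not examined. Transcript lengths come from an older annotation than the counts.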

Other observations

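*Tcf7*, *Tcf7l1*, and *Tcf7l2* encode HMG-box factors of the WNT pathway and are not E proteins, but *Tcf7l1* and *Tcf7l2* have been called Tcf3 and Tcf4 in older work. They were looked at for this reason after the other values were seen. *Tcf7* had 42.8, 18.0, and 11.8 normalized counts in WT replicates 2, 3, and 4 and 57.6, 82.1, and 58.1 in the corresponding *Irf1-/-* libraries, without overlap and without a call (log2 fold change 1.58, 95% interval 0.46 to 2.71, adjusted *P* = 0.131, limma). *Tcf7l1* had 236.2, 218.6, and 246.4 in WT and 313.4, 290.3, and 181.7 in *Irf1-/-* HSCs, which overlapped. *Tcf7l2* had 879.7, 827.2, and 829.4 in WT and 1037.2, 940.2, and 916.6 in *Irf1-/-* HSCs. All *Irf1-/-* values of *Tcf7l2* were above all WT values, and the gene was not called (log2 fold change 0.19, adjusted *P* = 0.518, limma).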
